A study of Mus musculus with 4 samples.

Results

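The mitochondrial ribosomal protein genes are the nuclear genes that encode the protein part of the mitochondrial ribosome. They were taken here as every gene whose mouse symbol starts with Mrpl or Mrps followed by a digit, which gave 78 of the 24148 genes in the count table. Their RNA was counted by sequencing in cultured primary microglia from mice. Microglia are brain macrophages, and these were detached by shaking from cultures of mixed glia before being plated for the experiment. Of the 4 libraries, 2 came from cells given lipopolysaccharide (LPS, the endotoxin of Gram-negative bacteria, sensed by Tlr4) at 10 ng/ml for 4 h, and 2 came from control cells labelled as not given LPS. The sources used here do not give strain, sex, age, or how many animals or cultures stand behind a library. The p-values therefore measure the spread among these 4 libraries, which may be technical in part.

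Mitochondrial ribosomes translate the few messages that the mitochondrial genome encodes, all of them for subunits of the respiratory chain and ATP synthase. Their RNA comes from mitochondrial DNA, whereas every protein is made in the cytosol from nuclear genes and imported. The large subunit forms peptide bonds and the small subunit decodes the message. Many of the proteins have a counterpart in bacterial ribosomes, and others are found only in mitochondria. In activated macrophages a turn from respiration to glycolysis is well described.

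The start regions of 4 members are shown first, those of the 3 with the largest positive log2 fold changes and the 1 with the largest negative one. They are RefSeq windows of GRCm38.p6 from 250 bases before to 50 bases after the annotated start, read 5′ to 3′ on the strand of the gene. Capitals mark the letters of the ETS motif CCGGAAG (the core bound by GABPA) or of the NRF1 core GCATGCGC on either strand. NRF1 and GABPA are known regulators of nuclear genes for mitochondrial proteins. Mrpl52 (chr14:54426659-54426958, plus strand), Mrpl30 (chr1:37890227-37890526, plus strand), Mrpl39 (chr16:84735195-84735494, minus strand) and Mrpl41 (chr2:24975049-24975348, minus strand) read as follows.
Mrpl52: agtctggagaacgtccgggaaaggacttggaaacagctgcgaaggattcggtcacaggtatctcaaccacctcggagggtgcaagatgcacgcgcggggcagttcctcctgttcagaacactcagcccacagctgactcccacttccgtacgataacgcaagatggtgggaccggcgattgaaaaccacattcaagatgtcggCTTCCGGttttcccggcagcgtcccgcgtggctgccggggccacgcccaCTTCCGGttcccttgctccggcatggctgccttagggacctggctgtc
Mrpl30: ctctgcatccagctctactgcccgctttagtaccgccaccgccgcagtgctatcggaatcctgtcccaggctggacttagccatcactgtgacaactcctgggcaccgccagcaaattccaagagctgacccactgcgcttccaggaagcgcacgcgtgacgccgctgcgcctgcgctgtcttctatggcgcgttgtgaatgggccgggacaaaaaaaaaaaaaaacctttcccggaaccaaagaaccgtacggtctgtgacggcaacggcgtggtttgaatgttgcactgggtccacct
Mrpl39: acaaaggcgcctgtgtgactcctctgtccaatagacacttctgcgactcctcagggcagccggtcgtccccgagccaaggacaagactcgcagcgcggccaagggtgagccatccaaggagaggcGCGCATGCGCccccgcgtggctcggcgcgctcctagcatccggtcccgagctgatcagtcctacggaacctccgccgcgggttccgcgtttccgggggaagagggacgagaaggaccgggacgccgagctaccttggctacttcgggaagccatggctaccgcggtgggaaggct
Mrpl41: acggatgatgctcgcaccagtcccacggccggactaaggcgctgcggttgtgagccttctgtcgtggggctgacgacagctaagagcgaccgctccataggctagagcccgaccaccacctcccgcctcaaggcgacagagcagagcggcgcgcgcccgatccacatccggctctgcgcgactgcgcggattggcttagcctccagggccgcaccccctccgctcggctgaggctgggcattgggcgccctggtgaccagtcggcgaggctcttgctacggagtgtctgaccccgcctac
The Mrpl52 window holds the ETS letters at 2 places, the Mrpl39 window holds overlapping NRF1 cores on both strands, and the windows of Mrpl30 and Mrpl41 hold neither. A match is a description of letters and not a bound site.

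RefSeq windows were found for 69 of the 78 members, 75 windows in all. The ETS letters occurred in 34.7% of member windows, against 8.86% of all 32851 windows of that length. The NRF1 core occurred in 10.7% of member windows and 2.71% of all windows. The full NRF1 palindrome, which contains that core, occurred in 4.0% of member windows and 0.971% of all windows. The letters AAGATGGCG of the factor YY1 occurred in 10.7% of member windows and 1.40% of all windows. Motifs of factors that act in the LPS response were rare among the member windows and among all windows, and all motifs were searched on both strands. A short NF-kB motif was in 0 of the 75 member windows and 1.63% of all windows, the interferon-stimulated response element in 4.0% and 3.44%, and the AP-1 letters TGACTCA were in 2.67% and 5.20%. The member windows were also richer in G and C, with a median of 58.7% against 52.7% in all windows and a median of 21 CG dinucleotides against 7. The share of a GC-rich motif moves with base composition, whose part in these differences was not tested.

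The libraries held 5095630 and 4592474 counts in LPS and 3617176 and 4080568 counts in control. The LPS response was present, since Il1b, Il6, Cxcl10, Rsad2, Ccl5 and Nos2 were all called higher by edgeR. The microglia markers Csf1r, Tyrobp, Cd68 and Cx3cr1 had at least 211 counts in each library. Others were low, with 20 and 10 counts of P2ry12 in LPS, against 39 and 39 in control, 15 and 19 of Tmem119 in LPS, against 39 and 44 in control, and 61 and 51 of Aif1 in LPS, against 47 and 54 in control. Itgam was listed at 0 and Trem2 had at most 2 counts, both with more than 1 accession in the table. Markers of other glia followed the library number rather than the treatment. Summed over 9 oligodendrocyte-lineage genes they reached 388 CPM (counts scaled to a common library size) in LPS replicate 1, 43.9 in LPS replicate 2, 376 in control replicate 1 and 53.3 in control replicate 2, and summed over 8 astrocyte genes 130, 440, 114 and 310 CPM in the same order. Sums over 6 neuronal genes were 49.4 and 65.7 CPM in LPS and 51.0 and 61.9 CPM in control, and sums over 5 fibroblast genes 38.9 and 64.3 CPM and 25.8 and 41.3 CPM. The sum over 10 microglia genes was lower in LPS, with 1949 and 1587 CPM, against 2817 and 2184 CPM in control, though none of the 8 tested was called (0 higher and 3 lower at an unadjusted p under 0.05). The part of these marker levels in the members' values was not tested. Among the astrocyte genes Aqp4 reached 870 counts and Gja1 257, while Slc1a2, with more than 1 accession in the table, had at most 4. In bulk libraries fewer cells of a type and less RNA per cell cannot be told apart.

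Of the 78 members, 72 had a mean of at least 10 counts over the 4 libraries and were tested. The 6 that were not, Mrpl48, Mrps2, Mrps10, Mrps23, Mrps33 and Mrps36, had 0 to 3 counts in every library. The product of Mrps36 is now known as a part of the 2-oxoglutarate dehydrogenase complex rather than of the ribosome. All 6 have more than 1 RefSeq accession in the table. Among the members 70 of 70 with a single accession were tested and 2 of 8 with several, and among all genes these shares were 46.5% and 11.7%. The low values of the 6 genes therefore stand beside a feature of the table that they share with many other genes, and their true level is uncertain. Mrpl1 and Mrpl15 were the members with several accessions that could be tested.

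Together the members held 5809 counts in LPS replicate 1 and 6238 in LPS replicate 2, and 4735 in control replicate 1 and 7539 in control replicate 2. After scaling by TMM, a method that corrects for depth and for a few dominant genes, their summed level was 1387 and 1496 CPM in LPS, against 1245 and 1450 CPM in control. The groups overlapped. As a share of all counts without that scaling, the members made up 0.114% and 0.136% in LPS, against 0.131% and 0.185% in control. The largest row of each library held 20.0% and 24.4% of its counts in LPS, against 24.8% and 23.7% in control. The gene Lars2 held 10.5% and 6.07% in LPS, against 13.0% and 5.02% in control. Both enter the totals behind the unscaled share, and their part in it was not tested. Control replicate 2 was the highest library on the unscaled share and control replicate 1 the lowest on the scaled level.

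Differences between LPS and control libraries were tested for all 9548 genes with enough counts by the quasi-likelihood test of edgeR, with Benjamini-Hochberg adjustment and a call at an adjusted p under 0.05. All calls, log2 fold changes (LPS over control, ± standard error) and adjusted p-values that follow come from that fit unless stated. Of the 72 tested members, 1 was called higher, the large-subunit gene Mrpl52, where 6.55% of all genes tested were called higher. None was called lower (0 of 72; 1.79% of all genes tested). At an unadjusted p under 0.05 the same fit gave 3 members higher (Mrpl52, Mrpl39 and Mrpl30; 12.8% of all genes tested) and 2 lower (Mrpl41 and Mrps15; 8.51% of all genes tested). DESeq2 called 1 member higher and 0 lower, where it called 741 higher and 227 lower of all genes tested (10.8%). After quantile normalization limma-trend called 0 members in either direction, where it called 524 higher and 322 lower of all genes tested (8.86%). With total-count scaling in edgeR 0 members were called higher and 2 lower, and over all genes tested 471 were called higher and 483 lower, where TMM scaling gave 625 and 171.

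The median log2 fold change of the members was 0.03, with quartiles at -0.24 and 0.24, beside a median of -0.05 over all genes tested with quartiles at -0.44 and 0.33. With total-count scaling both medians were negative, -0.40 for the members and -0.48 for all genes tested. The difference between them stayed at 0.08, since a change of scaling shifts all genes by nearly the same amount. The members' median was also negative with upper-quartile scaling (-0.20) and limma-trend (-0.06). For 70 members the fold change was smaller than 2-fold in either direction, and for 58 its log2 was smaller than 0.5. Standard errors ran from 0.21 to 0.56 with a median of 0.31, so that the estimate ± 2 standard errors stayed within a 2-fold change for 47 of the 72. For the other 25 a change of 2-fold or more lies within that range, and a gene without a call is not shown to be unchanged. Both LPS libraries lay above both control libraries in CPM for 14 members (19.4%; 24.7% of all genes tested) and below them for 15 (20.8%; 25.8% of all genes tested), and the groups overlapped for 43. The log2 fold change was negative for 32 members (44.4%; 53.6% of all genes tested) and positive for 40.

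**Figure D1:**
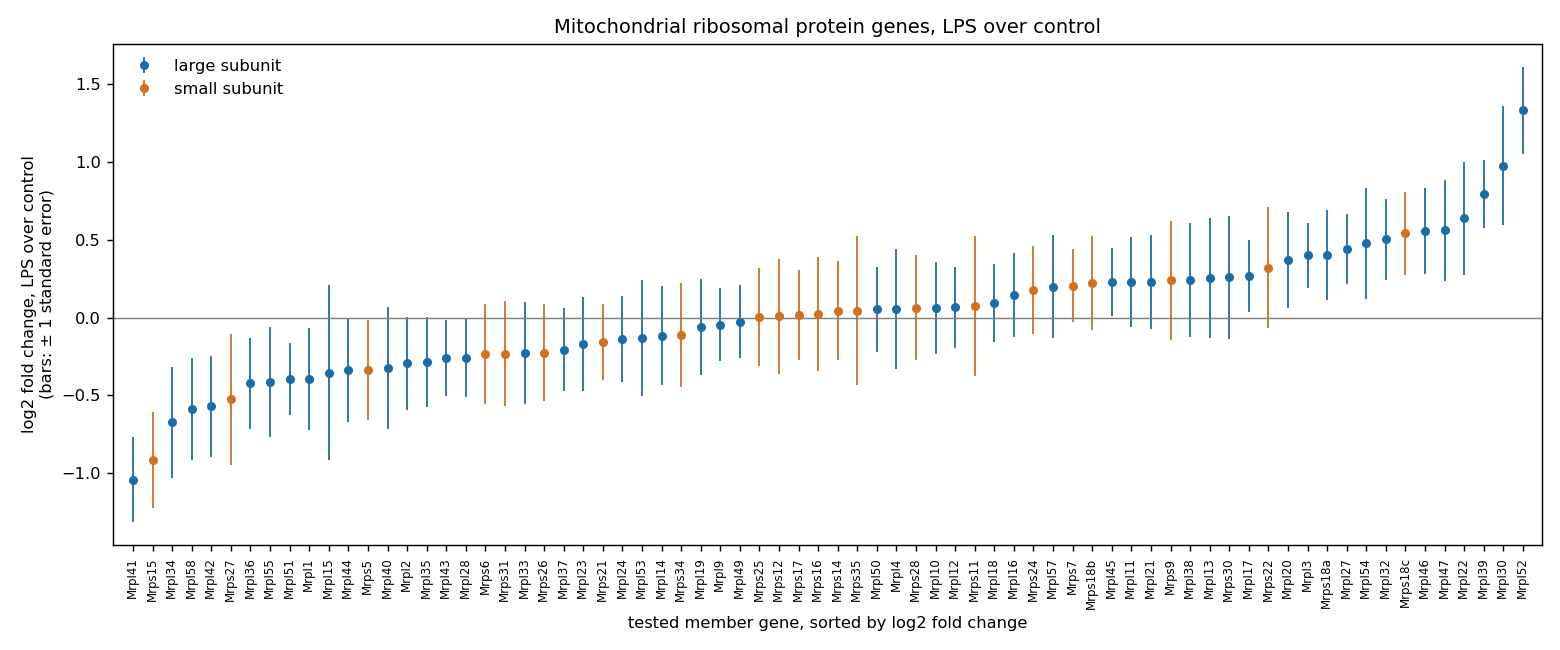
Log2 fold change of LPS over control for the 72 tested members, sorted, with bars of ± 1 standard error from edgeR. Points are coloured by ribosomal subunit, and most lie within 0.5 of 0, with Mrpl52 at 1.33 and Mrpl41 at -1.04 as the ends.

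Mrpl52 (chromosome 14, 54426909 to 54429750, GRCm38) encodes a large-subunit protein found only in mitochondrial ribosomes. It had 47.3 and 63.6 CPM in LPS, against 18.7 and 25.2 CPM in control, from 198 and 265 against 71 and 131 counts. Both LPS libraries were well above both controls, and the means were 55.4 ± 11.5 and 21.9 ± 4.62 CPM (SD, n = 2 each), a 2.52-fold difference (log2 1.33 ± 0.28, adjusted p = 0.048). The call lay close to the threshold. It was lost without control replicate 1 (1.13, adjusted p = 0.11), without LPS replicate 1 (1.54, 0.12) and without LPS replicate 2 (1.11, 0.25), and kept without control replicate 2 (1.54, 0.041). It was also lost with total-count scaling (0.90, 0.16), upper-quartile scaling (1.10, 0.095), a minimum mean count of 50 (1.23, 0.056) and limma-trend (1.17, 0.079). DESeq2 kept it (1.35, adjusted p = 0.0090). So did edgeR with no minimum mean count (1.44, adjusted p = 0.011) and with only genes of a single accession (1.33, adjusted p = 0.048). The log2 fold change was positive in each of these settings and was 1.32 between the first replicates and 1.32 between the second.

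Behind Mrpl52 came other large-subunit genes without a call. Mrpl30, the counterpart of bacterial L30, had 17.7 and 17.7 CPM in LPS, against 6.05 and 11.7 CPM in control (log2 0.98 ± 0.38, adjusted p = 0.23). Its LPS libraries were alike, and the control libraries differed from each other by about as much as the nearer one differed from LPS. The log2 fold change was 0.59 without control replicate 1 and 1.51 without control replicate 2. Mrpl39, a large-subunit protein without a bacterial counterpart, had 51.6 and 56.1 CPM in LPS, against 28.9 and 33.1 CPM in control (0.79 ± 0.22, adjusted p = 0.10). Its groups were clearly apart and each was tight, but the value did not pass the threshold in any setting without a replicate block. Mrpl22, whose bacterial counterpart lines the exit tunnel of the nascent peptide, had 17.2 and 30.5 CPM in LPS, against 13.4 and 17.1 CPM in control (0.64 ± 0.36, adjusted p = 0.41). Here LPS replicate 1 was almost level with control replicate 2, and the log2 fold change was 0.17 without LPS replicate 2 and 1.00 without LPS replicate 1.

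The other members with the largest positive values were Mrpl47, Mrpl46, Mrps18c and Mrpl32, with log2 fold changes of 0.50 to 0.56 and adjusted p of 0.34 to 0.42. Mrpl47, the counterpart of bacterial L29, had 10.3 and 8.87 CPM in LPS, against 6.83 and 6.15 CPM in control. Mrps18c, 1 of 3 mammalian relatives of bacterial S18 and the one in that protein's own place, had 32.2 and 23.7 CPM in LPS, against 20.0 and 18.5 CPM in control. Mrpl32, whose precursor is cut by the m-AAA protease of the inner membrane, had 37.2 and 39.1 CPM in LPS, against 22.3 and 31.3 CPM in control. In all 4 both LPS libraries exceeded both controls, and for Mrps18c and Mrpl32 the gap between the groups was narrower than the spread within one. Mrps18a and Mrps18b, the other S18 relatives, had log2 fold changes of 0.40 ± 0.29 and 0.22 ± 0.30 with overlapping groups.

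At the other end, Mrpl41 (chromosome 2, 24972470 to 24975098), a large-subunit protein found only in mitochondria, had 13.1 and 13.7 CPM in LPS, against 23.7 and 31.5 CPM in control. Every LPS value was below every control value, and the log2 fold change was -1.04 ± 0.27 without a call (adjusted p = 0.088). Mrps15, the counterpart of bacterial S15, which binds the small-subunit RNA, had 11.0 and 9.35 CPM in LPS, against 22.6 and 16.0 CPM in control (-0.92 ± 0.31, adjusted p = 0.17). It was the small-subunit gene with the largest difference. Both were called lower with total-count scaling (-1.49, adjusted p = 0.045 for Mrpl41; -1.33, adjusted p = 0.047 for Mrps15), a scaling that moved the median of all genes to -0.48.

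Mrpl34, Mrpl58, Mrpl42, Mrps27, Mrpl36 and Mrpl55 followed, with log2 fold changes of -0.67 to -0.41 and adjusted p of 0.37 to 0.60. Mrpl58, the peptidyl-tRNA hydrolase ICT1 that frees stalled mitochondrial ribosomes, had 13.1 and 10.1 CPM in LPS, against 14.2 and 20.6 CPM in control. Mrpl42 had 15.3 and 15.4 CPM in LPS, against 17.1 and 28.3 CPM in control. For both genes control replicate 1 lay near the LPS libraries and control replicate 2 stood apart. Without control replicate 2 the log2 fold change was -0.33 for Mrpl58 and -0.19 for Mrpl42, and without control replicate 1 it was -0.84 and -0.89. Mrps27, a pentatricopeptide repeat protein of the small subunit, had the lowest mean level of the tested members, with 3.10 and 2.64 CPM in LPS, against 3.42 and 4.81 CPM in control.

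**Figure D2:**
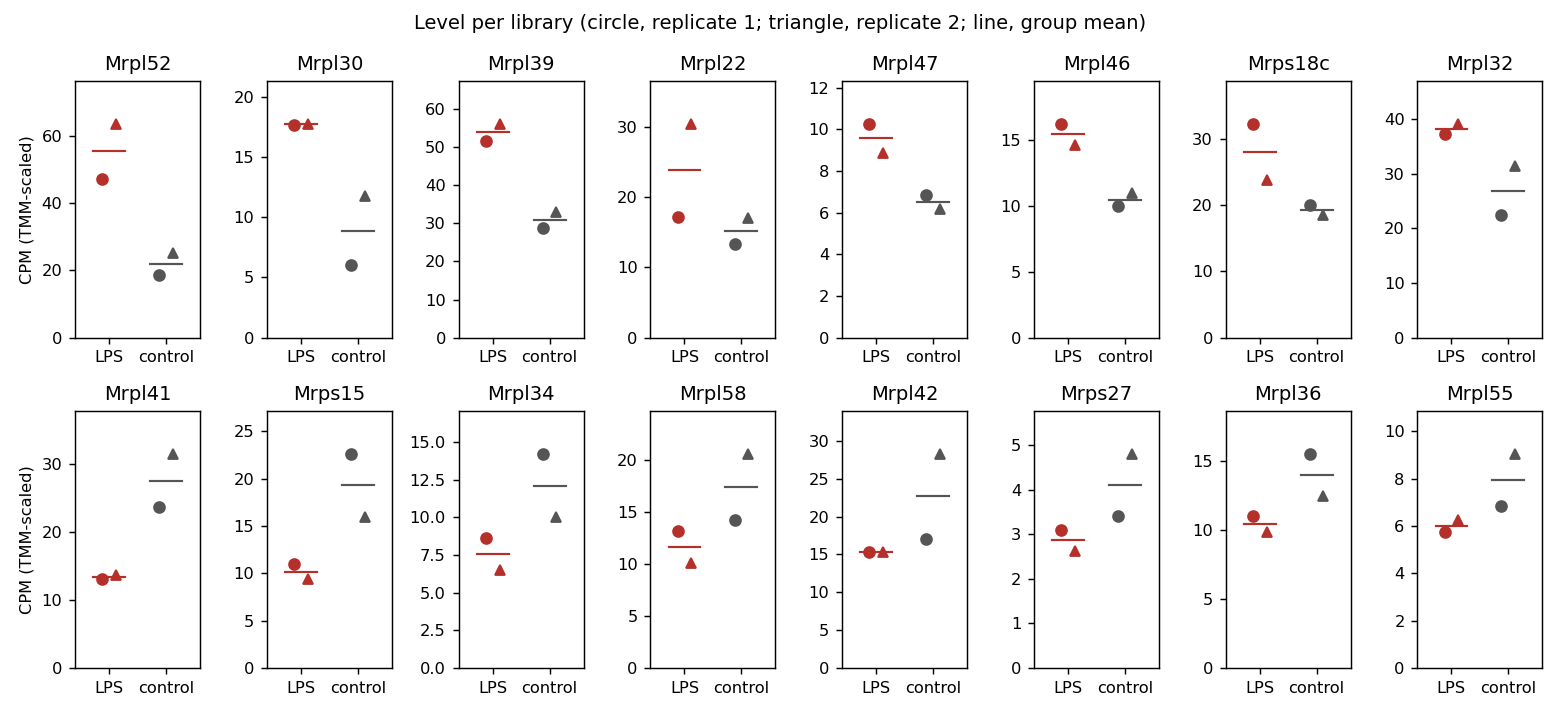
TMM-scaled CPM per library for the 8 tested members with the largest positive (top row) and largest negative (bottom row) log2 fold changes. Each axis starts at 0, circles are replicate 1, triangles replicate 2 and lines the group means; Mrpl52 has 47.3 and 63.6 CPM in LPS and 18.7 and 25.2 CPM in control.

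Parts of the ribosome with known roles, chosen after the values were seen, showed values of both signs. The stalk that recruits translation factors is built on Mrpl10 and Mrpl11 and carries Mrpl12, and these had log2 fold changes of 0.06 ± 0.30, 0.23 ± 0.29 and 0.07 ± 0.26. Mrpl12 had 27.9 and 38.6 CPM in LPS, against 29.7 and 33.8 CPM in control, with the control values inside the range of the LPS values. Around the exit tunnel, where products pass to the inner membrane, Mrpl23 and Mrpl24 had -0.17 ± 0.30 and -0.14 ± 0.28. Mrpl22, named above for the same tunnel, had a larger value of 0.64 ± 0.36. Mrpl45, which holds the ribosome to the inner membrane, had 0.23 ± 0.22. Mrpl3, a protein close to the peptidyl transferase centre, had 47.5 and 45.6 CPM in LPS, against 36.0 and 34.4 CPM in control (0.40 ± 0.21, adjusted p = 0.36). Its replicates were among the closest of the abundant members. Mrps12, the counterpart of the bacterial decoding protein S12, had 5.25 and 5.76 CPM in LPS, against 4.73 and 6.15 CPM in control (0.01 ± 0.37).

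By subunit, 1 of 50 tested large-subunit genes was called higher and 0 were called lower, with a median log2 fold change of 0.05 and quartiles at -0.28 and 0.27. Mrps30 and Mrps18a count among these, since their proteins sit in the large subunit despite the symbol. Of 22 small-subunit genes 0 were called in either direction by edgeR (0 higher and 1 lower at an unadjusted p under 0.05), with a median of 0.02 and quartiles at -0.21 and 0.15. LPS and control libraries did not overlap for 12 large-subunit genes above and 13 below, and for 2 small-subunit genes above and 2 below. These were 24% and 26% of the large-subunit genes and 9.09% and 9.09% of the small-subunit genes, beside 24.7% and 25.8% of all genes tested, so that the large-subunit counts lay at the background share. Proteins classed here as having a bacterial counterpart (42 genes) had a median of 0.05, and those classed as found only in mitochondria (27 genes) -0.11. The classes were set from background knowledge and some placings are uncertain. Among these are Mrpl55 (-0.41 ± 0.35) and Mrpl58 (-0.59 ± 0.33), both placed in the second class. The members share libraries and are not independent, so these class differences carry no test.

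The level per transcript length was compared over the 70 members with a single accession, using the longest linked GENCODE transcript. Some of these lengths exceed the whole RefSeq gene, among them Mrps26 (4278 against 1638 bases) and Mrpl51 (3427 against 2193 bases). The levels per kilobase and their order are uncertain to that extent. Mrpl52 was the highest of these genes in LPS, with 133 ± 27.6 CPM per kilobase, against 52.5 ± 11.0 CPM per kilobase in control (SD, n = 2 each), where it stood below Mrps21. Mrps21, the counterpart of bacterial S21, had 68.2 ± 11.1 CPM per kilobase in LPS and 76.1 ± 5.80 in control. Mrpl33 came next in control, with 36.5 ± 11.2 CPM per kilobase in LPS and 43.0 ± 8.44 in control, and Mrps18c, Mrpl27 and Mrpl20 had 37.3 to 43.9 in LPS and 28.7 to 32.0 in control. The order of those 4 differed between LPS and control. Mrps30 and Mrps35 had the lowest means over all 4 libraries, with 1.59 ± 0.30 and 0.92 ± 0.41 CPM per kilobase in LPS and 1.33 ± 0.24 and 0.90 ± 0.16 in control. On counts alone Mrpl39, Mrpl17, Mrpl50, Mrpl10, Mrpl3 and Mrpl52 had the highest mean CPM of the members. Of these Mrpl17 had 42.7 and 49.7 CPM in LPS, against 35.0 and 41.7 in control, while Mrpl50 and Mrpl10 overlapped between groups, with control replicate 2 the highest library and control replicate 1 the lowest.

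Several members with large values lie beside genes called in the same test. Others do not, among them Mrpl39, Mrpl47, Mrpl46, Mrps18c, Mrps15, Mrpl34 and Mrpl58. The nearest protein-coding gene on each side, and any gene overlapping in RefSeq coordinates, was looked up for the tested members, leaving out neighbours that are members themselves. This gave 90 tested neighbours of 60 members, 8 of them called (8.89%, where 8.34% of all genes tested were called). Mrpl52 lies 1848 bases before Mmp14, a membrane-bound matrix metalloproteinase on the same strand, which rose with 96 and 77 counts in LPS, against 15 and 29 in control (log2 2.10 ± 0.33, adjusted p = 0.019). Mrpl30 starts 28 bases from Mitd1, a gene on the opposite strand whose product acts in the last step of cell division, which rose with 357 and 371 counts in LPS, against 26 and 55 in control (3.31 ± 0.29, adjusted p = 0.0026). The window printed for Mrpl30 thus spans the start of both genes. Mrpl41 lies 892 bases from Pnpla7, a lysophospholipase gene on the opposite strand, which fell with 99 and 115 counts in LPS, against 288 and 368 in control (-1.51 ± 0.22, adjusted p = 0.014).

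Mrpl22 lies 4263 bases from Gm12250, which rose by 6.77 ± 0.54 on the log2 scale (adjusted p = 0.0021). Mrpl32 lies 205 bases from the proteasome subunit gene Psma2 (0.87 ± 0.18, adjusted p = 0.046), and Mrpl27 lies 1913 bases from the xylosyltransferase gene Xylt2 (1.45 ± 0.24, adjusted p = 0.021). A called neighbour also stood beside members that barely moved. Icam1, an adhesion molecule gene 7101 bases from Mrpl4, rose by 5.40 ± 0.37 (adjusted p = 0.0012), while Mrpl4 had 17.2 and 10.6 CPM in LPS, against 16.3 and 10.6 CPM in control. Klc4, a kinesin light chain gene whose start overlaps that of Mrpl2 on the opposite strand, fell by 2.31 on the log2 scale (adjusted p = 0.0090), while Mrpl2 had a value of -0.30 ± 0.30. The sign of the member was that of the neighbour in all 8 of these pairs and in 44 of the 82 pairs whose neighbour was not called. Among the 8, the log2 fold changes of Mrpl4 (0.05 ± 0.38) and Mrpl2 lay within 1 standard error of 0, so their signs are uncertain. The comparison of signs was chosen after the values were seen and carries no test. Whether reads of 1 gene were counted in another could not be examined in a count table, and the part of the neighbours in the members' values was not tested.

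**Figure D3:**
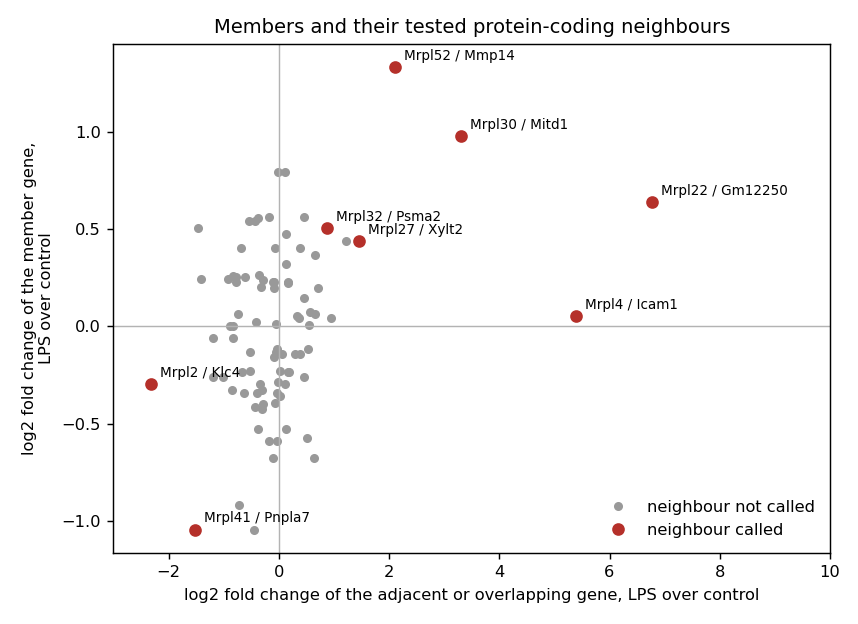
Log2 fold change (LPS over control) of a tested member (vertical axis) against that of a tested adjacent or overlapping protein-coding gene (horizontal axis). The 90 pairs come from 60 members, so that some members appear more than once. Red points mark the 8 pairs whose neighbour was called, such as Mrpl52 with Mmp14 at 2.10 and Mrpl4 with Icam1 at 5.40.

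Some neighbours belong to mitochondrial gene expression themselves. Mrpl46 and Mrps11 start 42 bases from each other on opposite strands and had log2 fold changes of 0.56 ± 0.28 and 0.08 ± 0.45, values that differ by about their standard errors. Mrps12 starts 136 bases from Sars2, the mitochondrial seryl-tRNA synthetase, with 0.01 ± 0.37 and 0.54 ± 0.41. Mrpl43 overlaps Twnk, the helicase of mitochondrial DNA, with -0.26 ± 0.25 and -1.19 ± 0.43 (adjusted p of Twnk 0.19). Overlap with another gene of the table was found for 18 of the tested members, among them Mrps6, which overlaps the inositol transporter gene Slc5a3 on the same strand, and their counts are uncertain to that extent.

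The rest of the mitochondrial translation system was followed in 6 lists with 65 tested genes. None was called in either direction by edgeR, where 6.55% of all genes tested were called higher and 1.79% lower. At an unadjusted p under 0.05, 1 was higher and 8 were lower, beside 12.8% and 8.51% of all genes tested, and DESeq2 and limma-trend also called 0. The 4 tested ribosomal proteins with other symbols, Ptcd3, Chchd1, Aurkaip1 and Gadd45gip1, had log2 fold changes of 0.05 to 0.21, and Dap3 had at most 1 count. Assembly factors of the mitochondrial ribosome (19 tested) had a median of -0.06. Mrm1, a methyltransferase of the large-subunit RNA, had the largest negative value, with 27 and 30 counts in LPS, against 71 and 74 in control (-1.26 ± 0.31, adjusted p = 0.077). Mpv17l2 and Rbfa, both needed for subunit assembly, had -0.97 ± 0.31 and -0.89 ± 0.31 (adjusted p = 0.15 and 0.18).

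Translation factors (12 tested) had a median of -0.24. Oxa1l, the insertase that receives new proteins at the inner membrane, had 107 and 102 counts in LPS, against 147 and 231 in control (-0.73 ± 0.23, adjusted p = 0.14). Gfm2, which splits the subunits after termination, had 17 and 19 counts in LPS, against 33 and 46 in control (-1.02 ± 0.34, adjusted p = 0.17). It is listed under 5 RefSeq entries, so that its level is uncertain. Gfm1, the elongation factor, had 0.31 ± 0.24. Aminoacyl-tRNA synthetases of mitochondria (17 tested) had a median of -0.21, with 13 negative and 4 positive. Among them Lars2 had 533174 and 278902 counts in LPS, against 469219 and 205042 in control, which is 5.02% to 13.0% of all counts in a library and far beyond the other synthetases, each at most 175. Genes of mitochondrial transcription and DNA maintenance (7 tested) had a median of -0.50, with Twnk and Top1mt at -1.19 and -1.16. Regulators of nuclear genes for mitochondrial proteins (6 tested) had a median of 0.29, all 6 positive with TMM scaling. Of these Esrra, an orphan nuclear receptor, had 232 and 168 counts in LPS, against 109 and 97 in control (1.02 ± 0.32, adjusted p = 0.14), and Gabpa had 331 and 344 against 230 and 325 (0.39 ± 0.20, adjusted p = 0.34). Nrf1 was listed at 0 in every library, so that its level is uncertain.

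Beside sets of like kind, the members had a like median and wider quartiles. Cytosolic ribosomal protein genes (70 tested of 85) had a median log2 fold change of 0.05 with quartiles at -0.08 and 0.13, and genes of the respiratory chain and ATP synthase (66 tested of 80) had a median of 0.07 with quartiles at -0.12 and 0.26. In both sets edgeR called 0 genes, with 2 higher and 0 lower among cytosolic ribosomal proteins and 0 either way among respiratory chain genes at an unadjusted p under 0.05. The sets differ in depth. The median mean count of a gene was 82.6 for the mitochondrial ribosomal proteins, 1354 for the cytosolic ones and 214 for the respiratory chain, and the median standard errors were 0.31, 0.20 and 0.22. How much of the wider spread goes with lower counts was not tested.

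**Figure D4:**
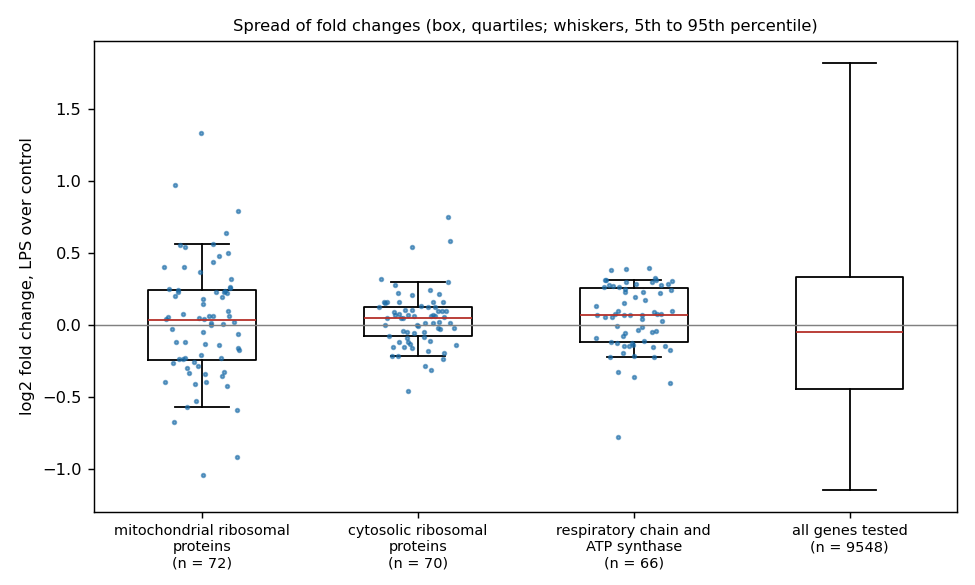
Log2 fold changes of LPS over control in 3 gene sets and in all genes tested. Boxes show quartiles with the median in red, whiskers the 5th to 95th percentile and dots single genes; the medians are 0.03, 0.05, 0.07 and -0.05 from left to right.

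The members also differed between libraries of 1 group. In control, 48 of the 72 tested members had more CPM in replicate 2 than in replicate 1, with a median ratio of 1.15, and in LPS 46 of 72 did. The members' median level on the log2 scale was 4.09 and 4.20 in LPS replicates 1 and 2, against 4.09 and 4.25 in control replicates 1 and 2. The LPS value lay at or just under the control value of the same number. Between the first replicates the median log2 fold change of the members was 0.08 and between the second it was -0.003, and 47 of 72 members had the same sign in both. Shares over all genes tested are not given for these counts, so the pattern is not shown to be particular to the members.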

How the data were processed

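Libraries of primary mouse microglia, 2 given LPS and 2 control, were made after removal of ribosomal RNA with a directional kit and sequenced as paired ends, per the labels' protocols. Named in the submitters' processing notes are mm10 and HTSeq 0.6.1, Cufflinks 2.2.1, TopHat2 2.0.10, Trimmomatic 0.33 and CASAVA 1.8.2. What each did, whether counting used strand and which annotation was used is not given in the sources used here. The authors deposited a table of whole-number counts for 32915 RefSeq accessions, 1 column per library. Its name calls the values normalized, but they are whole numbers and library totals differ, so they were used as counts. Whether the authors had scaled and rounded them was not tested.

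Accessions were matched to symbols with RefSeq GRCm38.p6 (32487) or GENCODE M21 (187), 241 matched neither, and counts were summed per symbol. Genes with a mean of at least 10 counts were tested with edgeR 4.0.16 (R 4.3.3), quasi-likelihood, TMM scaling, no covariate, two-sided, Benjamini-Hochberg over all genes at 0.05. CPM are TMM-scaled, and the standard error is the log2 fold change divided by the square root of F. TMM factors were 0.822 and 0.908 in LPS and 1.05 and 1.27 in control. DESeq2 1.42.0, limma 3.58.1 (log2 of the count + 1), other scalings and filters, a replicate block and each library left out were alternatives. The procedure was also run on simulated data with less spread between replicates than was estimated here, and no result rests on that run. Named were called members, the 8 largest changes each way, the 6 highest by CPM and untested members; others, among them the ribosome parts and neighbours, were chosen after their values were seen. Some marker genes are not reported here by name. Members and lists were chosen with earlier results of these data known.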

Additional observations from a re-analysis of the deposited data

How the results depend on the processing

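Counts of members called depended on the setting. The 1 member called higher became 0 with total-count scaling, upper-quartile scaling, a minimum mean count of 50 (55 members tested) and limma-trend after quantile normalization. Its call with 1 library left out is given with Mrpl52 above. The 0 members called lower became 2 (Mrpl41 and Mrps15) with total-count scaling. The median log2 fold change of the members was -0.40 with total-count scaling and -0.20 with upper-quartile scaling, and -0.11 to 0.075 (without control replicate 1 and 2, in that order) with 1 library left out. Those scalings moved the median of all genes to -0.48 and -0.28. A change of scaling shifts all genes by nearly the same amount, so the gap of 0.08 between the members and all genes could hardly move. In other settings the gap was -0.01 (minimum mean count of 50), 0.31 (no minimum mean count) and -0.07 to 0.12 (1 library left out). Calls over all genes were 625 higher and 171 lower with TMM, 471 and 483 with total-count scaling, and 537 and 320 with upper-quartile scaling. They were 524 and 322 with limma-trend, and 564 and 237 of 5769 genes with a minimum mean count of 50. In the related lists Mrm1 was the 1 gene called lower with total-count scaling, upper-quartile scaling or a minimum mean count of 50. Signs of some abundant members turned with the setting. These were Mrpl17 (-0.17) and Mrpl3 (-0.024) with total-count scaling, Mrpl50 with total-count (-0.40) or upper-quartile scaling (-0.19), a minimum of 50 (-0.054), limma-trend (-0.12) or without control replicate 1 (-0.22; -0.22 to 0.36 with 1 library left out), and Mrpl10 in the same settings (-0.39, -0.17, -0.042, -0.10 and -0.24) and without LPS replicate 2 (-0.04; -0.24 to 0.42 with 1 library left out). Of 236 values of 20 named members over 12 alternatives, 13 changed sign, and 19 of the 20 had no call to lose; among values that kept their sign, Mrpl32 moved to 0.057 with total-count scaling. The causes were not tested.

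The labels number the libraries 1 and 2 in both groups, and no source says that a number marks a shared culture or day. Deviations from the group means correlated at r = 0.66 over 9548 genes between libraries of the same number, which with 2 libraries a group is a single contrast. With the number as a replicate block, edgeR called 6 members higher (Mrpl22, Mrpl30, Mrpl32, Mrpl39, Mrpl52 and Mrps18c) and 2 lower (Mrpl41 and Mrps15), 5 genes of the related lists higher and 7 lower, and 1677 genes higher and 1258 lower in all. Members had 11 to 265 counts a library when leaving aside Mrpl15 and the untested ones; the part of counting error in their standard errors was not tested.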
